A study of Homo sapiens with 6 samples.

Results

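The report concerns 9 genes that act in adrenergic, muscarinic and endothelin signalling of the heart, out of 38557 gene rows counted in each library. They were chosen by symbol: the catecholamine receptors ADRB1, ADRA1A and ADRA1B, the acetylcholine receptor CHRM2, the peptide precursor EDN1 with its receptors EDNRA and EDNRB, and the phosphodiesterases PDE3A and PDE4D. The RNA came from cardiomyocytes differentiated from the human iPSC line WTC11 (induced pluripotent stem cells), an established line, so that all libraries stem from a single line. One group of 3 cultures was in RPMI plus B27, B27 being a serum-free supplement, and the other group of 3 was in DMEM plus fatty acids. No other treatment, allele or time in culture is named, and the composition of the media is not given in the sources used here. The comparison asks how the culture medium relates to transcript levels. The groups differ in base medium and in supplement, and these cannot be told apart.

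Heart muscle cells read adrenaline and noradrenaline through beta-adrenergic receptors, which couple to Gs and raise cyclic AMP (cAMP), and through alpha-1 receptors, which couple to Gq and phospholipase C. The M2 muscarinic receptor answers acetylcholine through Gi, which lowers cAMP and opens an inwardly rectifying potassium channel that slows the beat. Endothelin-1, cut from the EDN1 precursor by endothelin-converting enzyme, is a strong constrictor of vessels and a growth and contractile stimulus for cardiomyocytes, mostly through the ETA receptor encoded by EDNRA. Phosphodiesterases of the PDE3 and PDE4 families break down cAMP near its cardiac targets.

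Libraries held between 23232324 and 31035389 gene counts, and a count of 0 would allow up to 0.0889 to 0.129 CPM (counts scaled to the size of the library, itself adjusted by TMM, edgeR's trimmed mean of M values) in a library, for counting error only. The titles call the samples biological replicates and do not say whether they came from separate differentiations, so p values measure the spread between these libraries. Defining cardiomyocyte markers (TNNT2, MYH6, MYH7, TTN and 6 others) summed to 28314 to 35066 CPM in RPMI plus B27 and 22446 to 32086 CPM in DMEM plus fatty acids, with 0 of 10 under 1 CPM in every library. The overlapping sums cover markers that differed: edgeR called 0 of 10, with 3 at an unadjusted p under 0.05 and without overlap. These were the myosin heavy chains MYH7 (-1.27, edgeR adjusted p 0.163) and MYH6 (0.86, 0.166) and the Z-disc protein ACTN2 (-1.0, 0.155), all 3 called by DESeq2, and MYH7 and ACTN2 with a block for replicate number. Fibroblast and stromal markers summed to 4229 to 7973 CPM in RPMI plus B27 against 741.3 to 1926 CPM in DMEM plus fatty acids. Single markers differed widely in DMEM plus fatty acids, where COL1A1 had 211.8 to 333.5 CPM. There DCN lay at 0 to 0.602 CPM, THY1 at 0.301 to 0.860 and TCF21 at 0.0334 to 0.385. In RPMI plus B27 DCN lay at 11.6 to 37.9 CPM, THY1 at 2.61 to 8.44 and TCF21 at 0.128 to 1.09. In bulk RNA, fewer cells of a type and less RNA per cell cannot be told apart.

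Of the 9 genes, 8 passed the filter on low counts and 1 of these 8, EDN1, was called at an adjusted p under 0.05 (edgeR quasi-likelihood test, Benjamini-Hochberg over 16107 genes), in a comparison where 1.36% of all tested genes were called, 1.07% as lower and 0.292% as higher. EDN1 was also the single gene of the 8 whose libraries did not overlap between media, a pattern held by 25.6% of all tested genes. The median log2 fold change of the 8 was -0.22, beside 0.01 for all tested genes. Fold changes divide the DMEM plus fatty acids level by that in RPMI plus B27.

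**Figure D1:**
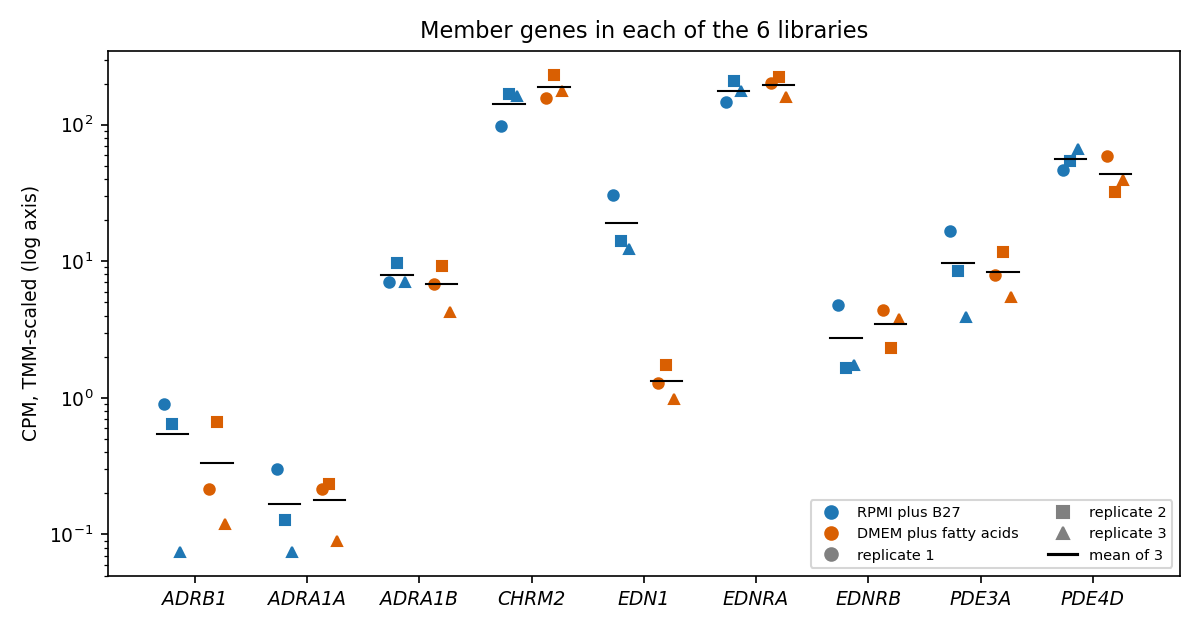
Level of the 9 genes in each library, as TMM-scaled CPM on a log axis. Blue points are RPMI plus B27, orange points DMEM plus fatty acids, shapes are replicate numbers and bars are means of 3. EDN1 is the gene whose colours separate, at 12.2 to 30.4 against 0.978 to 1.74 CPM, while ADRB1 and ADRA1A lie under 1 CPM throughout.

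EDN1 encodes preproendothelin-1 and lies on the plus strand of chromosome 6 at 12290363 to 12297194 (GRCh38, GENCODE v29). It stood at 30.4, 14.2 and 12.2 CPM in RPMI plus B27 replicates 1, 2 and 3, and at 1.29, 1.74 and 0.978 CPM under DMEM plus fatty acids replicates 1, 2 and 3. Every RPMI plus B27 library was above every DMEM plus fatty acids library, and replicate 1 of RPMI plus B27 stood above the rest. EDN1 fell from 18.9 ± 9.97 to 1.34 ± 0.382 CPM (SD, n = 3 each), a log2 fold change of -3.82 ± 0.44 (SE) with an adjusted p of 0.0252 by edgeR. That is 14.1-fold lower, with a 95% interval of 6.96 to 28.7. The raw counts behind it were 806, 333 and 327 against 30, 52 and 33. Between libraries of the same replicate number the log2 differences were -4.56, -3.03 and -3.64, so the direction was the same in 3 of 3. EDN1 ranked 23 by p value and 49 from the lowest log2 fold change among 16107 genes.

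The call of EDN1 held when RPMI plus B27 lost replicate 1 (-3.30, edgeR adjusted p 0.0382) or replicate 3 (-4.05, 0.0342). It was lost when RPMI plus B27 lost replicate 2 (adjusted p 0.0848), and likewise when replicate 1 (0.0800), 2 (0.0698) or 3 (0.0819) of DMEM plus fatty acids was left out, where the log2 fold change was -4.06 to -3.62.

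The 250 bases upstream of the EDN1 start used by GENCODE's coding transcript are shown because EDN1 is the gene that differed, together with those of NR4A3 and DUSP1, genes induced by cAMP signalling that are described further on. Sequences are from RefSeq (GRCh38.p14), on the strand of the gene, 5′ to 3′, and end at the base before the start. EDN1 spans chr6:12290111-12290360 on the plus strand, NR4A3 chr9:99821635-99821884 on the plus strand and DUSP1 chr5:172771196-172771445 on the minus strand. Capitals mark matches to 6 motifs, searched on both strands unless stated. One is the cAMP response element TGACGTCA. Its core, TGACG, was searched as a motif of its own. A motif like that of the transcription factor AP-1 was spelled TGACTNA. The motif of the cardiac and endothelial GATA factors was spelled GATAAG. The core of the hypoxia response element was spelled ACGTG. The TATA box, TATAAA, was searched on the strand of the gene alone. The full cAMP response element contains the core, and adjoining matches can run together.
EDN1: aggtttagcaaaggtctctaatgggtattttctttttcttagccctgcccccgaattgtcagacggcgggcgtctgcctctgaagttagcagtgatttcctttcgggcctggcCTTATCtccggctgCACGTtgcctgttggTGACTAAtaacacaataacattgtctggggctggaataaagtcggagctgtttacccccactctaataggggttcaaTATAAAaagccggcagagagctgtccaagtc
NR4A3: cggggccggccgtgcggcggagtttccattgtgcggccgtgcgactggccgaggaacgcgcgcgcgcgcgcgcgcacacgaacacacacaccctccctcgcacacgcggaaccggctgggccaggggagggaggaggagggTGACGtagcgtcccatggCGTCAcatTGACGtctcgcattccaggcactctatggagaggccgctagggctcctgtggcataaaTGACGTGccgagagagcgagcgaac
DUSP1: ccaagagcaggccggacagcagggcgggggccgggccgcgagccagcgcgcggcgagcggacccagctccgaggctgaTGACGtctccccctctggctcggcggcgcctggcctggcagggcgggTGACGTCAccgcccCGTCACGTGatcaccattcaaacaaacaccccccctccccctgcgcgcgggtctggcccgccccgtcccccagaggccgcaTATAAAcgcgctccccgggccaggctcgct

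In EDN1 the GATA match begins 137 bases before the start, the hypoxia core 123, the AP-1-like match 108 and the TATA box 31. Of 34943 RefSeq windows of that length, 5.65% held the GATA motif, 18.5% the hypoxia core, 9.82% the AP-1-like motif and 6.82% the TATA box. The cAMP core was found in 21.2% of windows and not in this EDN1 window. The window of another EDN1 start, at 12290014, held the core 142 bases before it. NR4A3 held 4 matches to the cAMP core. DUSP1 held the full element, present in 1.63% of windows, beginning 125 bases before its start. Both were printed because they hold the element or its core. The RefSeq windows searched for NR4A1 and PER1, described with them further on, held neither the element nor its core. GENCODE's basic annotation lists 7 starts of coding transcripts for NR4A1 and 3 for PER1. Of these, 1 lay within 100 bases of the start of each window, and the remaining starts had no window of their own. The matches are letters in a window and describe neither binding nor a cause. RefSeq lists 3 starts for EDN1, and the counts do not separate them.

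Markers of other cells moved in the same libraries as EDN1. Of the 10 fibroblast and stromal markers, 9 had a lower fitted level in DMEM plus fatty acids and 4 were called as lower (COL1A1 at -2.72, COL3A1 at -2.25, DCN at -5.81 and POSTN at -2.95, edgeR adjusted p 0.0338 to 0.0452). Of the 8 smooth muscle and mural markers, 8 had a lower fitted level and 1 was called (LMOD1, -1.62, edgeR adjusted p 0.0292). Their summed level was 1687 to 2200 CPM in RPMI plus B27 and 420.9 to 1255 CPM in DMEM plus fatty acids. The part of these cells in the EDN1 difference was not tested. Endothelial cells are a main source of endothelin-1 in vivo, and 4 of their 8 markers, PECAM1, CDH5, VWF and ESAM, stayed at or under 0.641 CPM in every library. Those 4 genes, grouped after their values were seen, summed to 0.373 to 1.32 CPM in RPMI plus B27 and 0.129 to 0.368 CPM in DMEM plus fatty acids. The sum over the whole endothelial list was higher under DMEM plus fatty acids in its range, at 56.3 to 249.9 CPM in RPMI plus B27 and 119.9 to 471.4 CPM under DMEM plus fatty acids, with overlap. KDR, a growth factor receptor that early cardiac cells also make, held 27.5 to 238.9 and 114.5 to 463.2 CPM of it and was the 1 of 4 tested endothelial markers with a higher fitted level (1.26, edgeR adjusted p 0.434, or 0.0245 with the block). The other 3 had lower fitted levels. EGFL7 stood at 9.77 to 25.5 against 4.48 to 7.62 CPM (-1.27, edgeR adjusted p 0.176) and TEK at 0.485 to 1.13 against 0.1003 to 0.258 CPM (-2.13, 0.0960), both without overlap and both called as lower by DESeq2. TIE1 overlapped (-0.97, edgeR adjusted p 0.389). The part of endothelial cells in the EDN1 difference was not tested either. Neural crest, glial and sympathetic markers had FOXD3 and TH at 0 in all libraries and summed to 8.25 to 32.0 and 3.95 to 5.90 CPM. ERBB3 held most of that sum (7.23 to 31.3 and 3.21 to 5.55 CPM). Epicardial markers summed to 107.4 to 293.8 and 44.8 to 90.6 CPM, nearly all of it KRT19, a keratin of epithelia (100.2 to 280.9 and 41.6 to 84.7 CPM), while WT1, UPK3B, UPK1B and ALDH1A2 stayed under 1 CPM in every library. Of 5 tested epicardial markers, 4 had a lower fitted level and 1 a higher one. TBX18 stood at 3.11 to 7.72 against 0.803 to 1.36 CPM without overlap (-2.18, edgeR adjusted p 0.0605). BNC1 overlapped (-0.99, edgeR adjusted p 0.348). DESeq2 called KRT19, TBX18 and WT1 as lower. The neural crest and epicardial sums were both lower in all 3 DMEM plus fatty acids libraries, and the part of these cells was not tested.

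**Figure D2:**
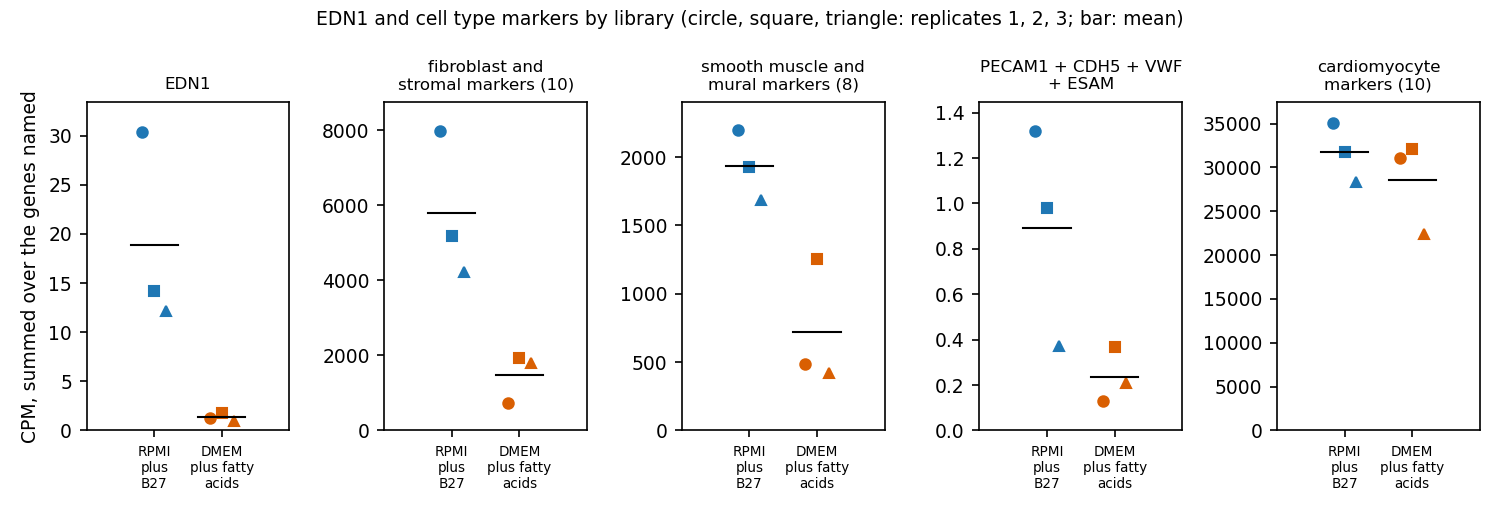
EDN1 and summed cell type markers by library, in CPM on linear axes from 0, for RPMI plus B27 (blue) and DMEM plus fatty acids (orange), with bars for means. EDN1, the stromal and smooth muscle markers and the 4 endothelial genes, these at or under 1.32 CPM in sum, are lower in all 3 DMEM plus fatty acids libraries, and the ranges of the cardiomyocyte sum overlap.

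Of the other endothelin ligands and converting enzymes, 0 of 3 tested were called by edgeR, with 1 at an unadjusted p under 0.05 (ECE1), and DESeq2, which tests more genes, called EDN3 as lower. EDN2, a second endothelin precursor, had 1.81, 0.979 and 0.559 CPM in RPMI plus B27 and 0.431, 0.502 and 0.682 CPM under DMEM plus fatty acids (log2 fold change -1.03, edgeR adjusted p 0.320). EDN3, the third, had 17, 5 and 6 counts against 1, 0 and 0 and was under the edgeR filter. ECE1, the converting enzyme, was abundant at 275.0, 321.6 and 283.9 CPM in RPMI plus B27. It stood at 137.0, 246.9 and 229.0 CPM in DMEM plus fatty acids, without overlap between media (-0.52, 95% interval -1.04 to -0.0039, edgeR adjusted p 0.279). ECE2 was listed at 0 in every library. ECEL1, a related peptidase, had -0.15 (edgeR adjusted p 0.863).

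EDNRA encodes the ETA receptor and lies on the plus strand of chromosome 4 at 147480917 to 147544954. It had 146.2, 208.2 and 175.6 CPM in RPMI plus B27 and 202.5, 225.1 and 159.0 CPM under DMEM plus fatty acids. The groups overlapped, and the 6 libraries alternated between media when ordered by level. Its log2 fold change was 0.15 ± 0.18 (SE), with a 95% interval of -0.28 to 0.57 and an edgeR adjusted p of 0.720. Of the 9 genes it had the narrowest interval.

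EDNRB encodes the ETB receptor, known for clearing endothelin and for its role in neural crest cells, and lies on the minus strand of chromosome 13 at 77895481 to 77975529. It had 4.75, 1.66 and 1.75 CPM in RPMI plus B27 and 4.39, 2.31 and 3.79 CPM under DMEM plus fatty acids. RPMI plus B27 replicate 1 was the highest library and the other 2 of its medium were the lowest. The log2 fold change was 0.36 (95% interval -0.76 to 1.47, edgeR adjusted p 0.739). Without RPMI plus B27 replicate 1 it was 1.03, the largest value over its alternatives, with an adjusted p of 0.257. The balance of the 2 receptors, as the log2 ratio of EDNRB to EDNRA counts in a library (0.5 added to each), was -6.17 ± 1.08 in RPMI plus B27 and -5.83 ± 0.665 under DMEM plus fatty acids (SD with n = 3 per medium, exact two-sided permutation p = 0.8, where 3 against 3 cannot go below 0.1).

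ADRB1, the beta-1 receptor and the main beta-adrenergic receptor of adult heart muscle, lies on the plus strand of chromosome 10 at 114044056 to 114046908. It had 24, 15 and 2 counts (0.904, 0.638 and 0.0746 CPM) in RPMI plus B27 and 5, 20 and 4 counts (0.215, 0.669 and 0.119 CPM) under DMEM plus fatty acids. Replicate 3 was the lowest library in both media, and the media overlapped. The log2 fold change of -0.67 had a 95% interval of -2.73 to 1.38 (edgeR adjusted p 0.734). It was -1.70 when replicate 2 of DMEM plus fatty acids was left out and -0.053 when RPMI plus B27 lost replicate 1.

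ADRA1B, an alpha-1 receptor coupled to Gq, lies on the plus strand of chromosome 5 at 159865080 to 159972544. It had 7.05, 9.66 and 7.05 CPM in RPMI plus B27 and 6.76, 9.26 and 4.27 CPM under DMEM plus fatty acids. Replicate 2 was the highest library in both media. Its log2 fold change was -0.23 (95% interval -0.96 to 0.50, edgeR adjusted p 0.749). ADRA1A, the alpha-1A receptor on chromosome 8 (minus strand, 26748150 to 26867273), had 8, 3 and 2 counts against 5, 7 and 3, which left it under the filter. Among all genes with a count, its log2 fold change was 0.08 with a 95% interval of -1.53 to 1.69.

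Of the 6 further adrenergic receptors, 4 were tested and 0 were called, 0 of them at an unadjusted p under 0.05 by edgeR, and 0 by DESeq2 or with the replicate number as a block (the libraries of a number treated as a pair). ADRA2B, an alpha-2 receptor, had 8.82, 2.38 and 2.13 CPM against 3.14, 1.87 and 1.90 CPM (-0.95, edgeR adjusted p 0.440), and 0.02 without RPMI plus B27 replicate 1. ADRA2C, another alpha-2 receptor, had 0.867, 0.596 and 1.01 CPM against 1.46, 1.20 and 1.01 CPM (0.56, edgeR adjusted p 0.428).

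CHRM2, the M2 receptor, lies on the plus strand of chromosome 7 at 136868669 to 137020255. It had 97.9, 168.8 and 161.8 CPM in RPMI plus B27 and 157.6, 232.5 and 175.1 CPM under DMEM plus fatty acids. Each DMEM plus fatty acids library was above the RPMI plus B27 library of the same number (log2 differences 0.69, 0.46 and 0.11), while the media overlapped. The log2 fold change was 0.40 ± 0.24 (SE), with a 95% interval of -0.16 to 0.96 and an edgeR adjusted p of 0.428, or 0.138 with the replicate block. Of the other muscarinic receptors 0 were called by edgeR or DESeq2 and 0 had an unadjusted p under 0.05. CHRM3 (-0.28, edgeR adjusted p 0.775) and CHRM4 (0.07, 0.948) were tested, and CHRM1 and CHRM5 had at most 2 counts in any library.

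Among the channel's subunits, 0 of 3 tested were called by edgeR or DESeq2, with 1 at an unadjusted p under 0.05 (KCNJ6). KCNJ5, a subunit of the potassium channel that M2 opens, had 86.1, 78.6 and 140.8 CPM against 62.7, 73.0 and 122.3 CPM (-0.24, edgeR adjusted p 0.727). Its usual partner KCNJ3 was low, at 0.867, 0.681 and 0.149 CPM in RPMI plus B27 and 3.23, 0.435 and 0.415 CPM under DMEM plus fatty acids. That is a log2 fold change of 1.23 (edgeR adjusted p 0.542), which turned to -0.41 when replicate 1 of DMEM plus fatty acids was left out. KCNJ6 was lower still, at 0.410 to 0.528 CPM against 0.0593 to 0.234 CPM (-1.85, edgeR adjusted p 0.149).

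Levels of different genes were compared per length, as CPM per kb of exons (union of GENCODE v29 exons, an annotation that may differ from the one the authors counted with). In RPMI plus B27 the order was EDNRA (41.7 CPM per kb), CHRM2 (17.2), EDN1 (9.30), PDE4D (3.42), ADRA1B (2.95), PDE3A (1.16), EDNRB (0.485), ADRB1 (0.189) and ADRA1A (0.0287). In DMEM plus fatty acids it was EDNRA (46.1 CPM per kb), CHRM2 (22.6), PDE4D (2.66), ADRA1B (2.52), PDE3A (0.997), EDN1 (0.657), EDNRB (0.624), ADRB1 (0.117) and ADRA1A (0.0307). EDN1 moved from the third to the sixth place, and the other 8 kept their order. EDNRA, at 34.5 to 53.1 over all 6 libraries, did not overlap with CHRM2 at 11.8 to 27.9. In RPMI plus B27, EDN1 at 6.0 to 14.9 CPM per kb overlapped with CHRM2 and lay above PDE4D. PDE4D (1.97 to 4.09) and ADRA1B (1.59 to 3.59) overlapped, as did ADRA1B and PDE3A (0.466 to 1.99), PDE3A and EDNRB (0.296 to 0.847), EDNRB and ADRB1 (0.0261 to 0.317), and ADRB1 and ADRA1A (0.0128 to 0.0515). Under DMEM plus fatty acids EDN1 (0.481 to 0.855) overlapped with PDE3A and EDNRB.

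Among other receptor subtypes, ADRB3, a beta-adrenergic receptor known from fat tissue, had a mean of 0.251 CPM per kb in RPMI plus B27 and 0.284 under DMEM plus fatty acids, and its range over libraries (0.093 to 0.512) overlapped with that of ADRB1. ADRA1B led the alpha-1 receptors, since ADRA1D had 0.0377 and 0.103. CHRM2 led the muscarinic receptors, and CHRM4 had 0.687 to 1.45 CPM per kb over the 6 libraries.

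**Figure D3:**
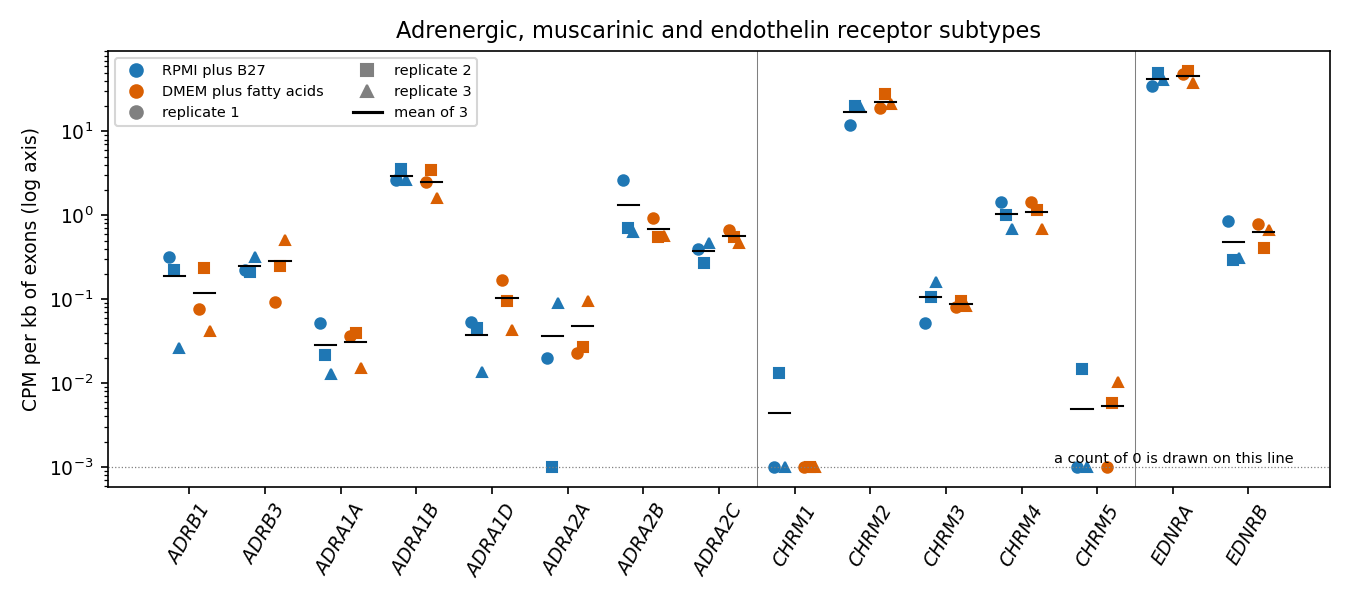
Adrenergic, muscarinic and endothelin receptor subtypes in each library, as CPM per kb of exons on a log axis, with RPMI plus B27 in blue, DMEM plus fatty acids in orange and bars for means of 3. EDNRA (34.5 to 53.1) and CHRM2 (11.8 to 27.9) stand above the other subtypes drawn in both media, and ADRA1B (1.59 to 3.59) is the highest alpha-1 receptor.

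PDE3A, the phosphodiesterase inhibited by cyclic GMP and the target of milrinone, lies on the plus strand of chromosome 12 at 20369245 to 20684381. It had 16.7, 8.55 and 3.92 CPM in RPMI plus B27 and 7.97, 11.7 and 5.45 CPM under DMEM plus fatty acids. The RPMI plus B27 libraries held both the highest and the lowest value. The log2 fold change was -0.22 (95% interval -1.42 to 0.99, edgeR adjusted p 0.864), and 0.43 without RPMI plus B27 replicate 1. PDE4D, a cAMP-specific enzyme known for its place near the ryanodine receptor and beta-adrenergic receptors, lies on the minus strand of chromosome 5 at 58969038 to 60522120. It had 46.5, 53.9 and 66.7 CPM against 58.6, 32.1 and 39.3 CPM. DMEM plus fatty acids replicate 1 lay among the RPMI plus B27 libraries and the other 2 of its medium below them (-0.36, 95% interval -0.93 to 0.20, edgeR adjusted p 0.476). The log2 ratio of PDE4D to PDE3A counts was 2.74 ± 1.31 in RPMI plus B27 and 2.39 ± 0.811 under DMEM plus fatty acids (SD with n = 3 per medium, exact two-sided permutation p = 0.9). Exons of antisense genes overlap 4.81% of the exonic bases of PDE3A, 1.39% of those of PDE4D (PART1) and 1.43% of those of EDNRB, so that reads there are uncertain where strand was not used in counting.

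**Figure D4:**
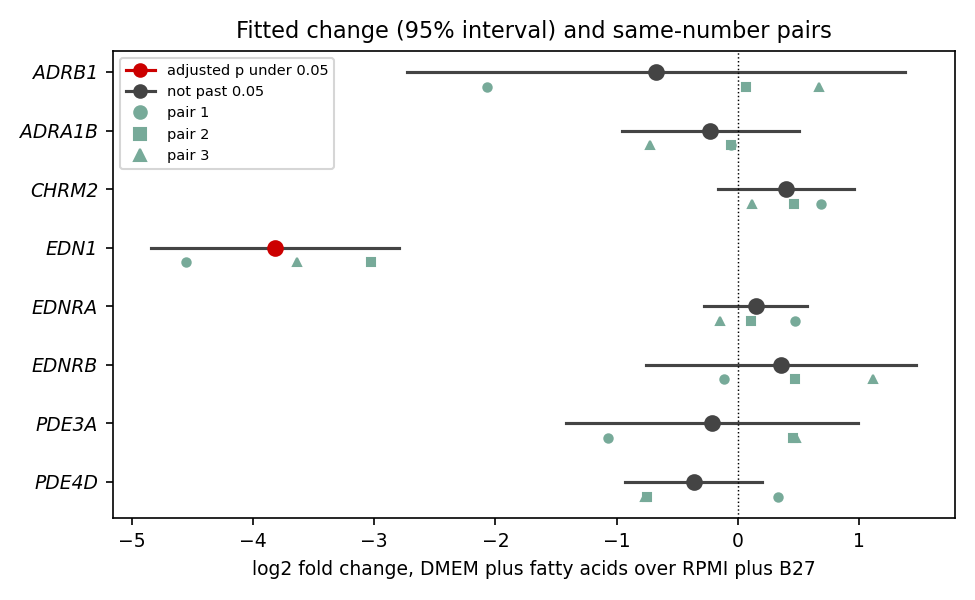
Fitted log2 fold change of the 8 tested genes, positive where DMEM plus fatty acids was higher, with 95% intervals from edgeR (large points and lines), and the log2 differences between libraries of the same replicate number (small symbols). The interval of EDN1, -4.84 to -2.80, lies below 0 and the other 7 intervals include 0.

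RPMI plus B27 replicate 1 was the highest of the 6 libraries for 5 of the 9 genes (ADRB1, ADRA1A, EDN1, EDNRB and PDE3A) and the lowest for 2 (CHRM2 and EDNRA). The same library had the highest sum for 5 of the 6 marker lists, the cardiomyocyte list among them, and the lowest for the endothelial list.

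Over 6 libraries, the 2 genes most alike each member were taken from 10028 tested genes averaging at least 10 CPM, by Pearson's r of log2 CPM. With so few libraries, which share medium and replicate number, high values are common, and they are given as a description. They were EPN2 and UBE2H for EDN1 (r 0.999 and 0.998), COMMD1 and MTX2 for EDNRA (0.986 and 0.984), TMEM175 and ARGLU1 for EDNRB (0.997 and 0.997), and NSF and FIS1 for CHRM2 (0.994 and 0.991). For ADRB1 they were TEF and TBCA (0.986 and 0.980), for ADRA1B C11orf49 and SDE2 (0.983 and 0.981), for PDE3A PIFO and APOBEC2 (0.999 and 0.985) and for PDE4D ATAD2B and RIN2 (0.994 and 0.990).

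Beyond the 9 genes, 157 further genes in 13 lists were read from the same fit, of which 140 were tested. The lists hold other receptors and ligands as well as genes that act downstream of receptors. The fit called 2 of them, 1.43% beside 1.36% for all tested genes: CALCRL as higher and PLCE1 as lower. With a block for replicate number, 13 of 140 were called, 3 higher and 10 lower, which is 9.29% beside 4.78% for all tested genes. At an unadjusted p under 0.05 there were 29, or 20.7% beside 17.7%. DESeq2 called 13 of the 155 to which it gave a p value, 3 higher and 10 lower, beside 1232 of 26969 genes in all. Its own filter can leave such a gene without an adjusted p, so these shares do not compare directly with those of edgeR.

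In the phospholipase C arm of Gq signalling, 1 of 22 tested genes was called as lower and 0 as higher, and with the block 1 lower and 1 higher. PLCE1, phospholipase C epsilon, a scaffold of hypertrophic signalling that small GTPases activate, had 27.5, 28.8 and 43.3 CPM in RPMI plus B27 and 9.52, 8.23 and 14.8 CPM under DMEM plus fatty acids. All RPMI plus B27 libraries were above all DMEM plus fatty acids libraries. PLCE1 fell by 1.61 on the log2 scale (SE 0.28, edgeR adjusted p 0.0478, or 0.00810 with the block). The call was lost without any single one of the 6 libraries (edgeR adjusted p 0.0808 to 0.154). With all 6 libraries it was lost under scaling by total counts (0.0648) and among genes with 10 or more counts in each library (0.0566). PLCE1 was called in 4 of its 12 alternatives, DESeq2 among them. ITPR1, an inositol trisphosphate receptor that releases calcium, had 22.2, 21.8 and 28.1 CPM against 33.5, 32.1 and 40.3 CPM (0.55, edgeR adjusted p 0.147, or 0.0493 with the block). PLCB4, a Gq-activated phospholipase, had 0.42 (edgeR adjusted p 0.174). The list median was -0.04.

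Among 17 tested receptors for other hormones and mediators, CALCRL, which with RAMP partners forms receptors for adrenomedullin and CGRP, was called as higher and 0 were called as lower. It had 2.0, 2.81 and 1.83 CPM in RPMI plus B27 and 6.20, 7.52 and 7.23 CPM under DMEM plus fatty acids. The groups did not overlap, and CALCRL rose by 1.66 on the log2 scale (SE 0.26, edgeR adjusted p 0.0402), a call that was lost without any single one of the 6 libraries (0.0734 to 0.132). PTGER3, a prostaglandin E2 receptor coupled to Gi, had 4.07, 5.57 and 2.27 CPM against 74.3, 27.7 and 14.4 CPM (3.29, edgeR adjusted p 0.0610, or 0.0186 with the block). Its log2 fold change was 2.41 when replicate 1 of DMEM plus fatty acids was left out, and PTGER3 was called in 0 of 6 fits that left out 1 library. DESeq2 called 2 genes of this list, CALCRL and PTGER3, both as higher. CALCRL was called in 6 of its 12 alternatives and PTGER3 in 3 of its 12. LPAR1, a lysophosphatidic acid receptor, had -0.94 (edgeR adjusted p 0.249). The median of this list was -0.28.

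**Figure D5:**
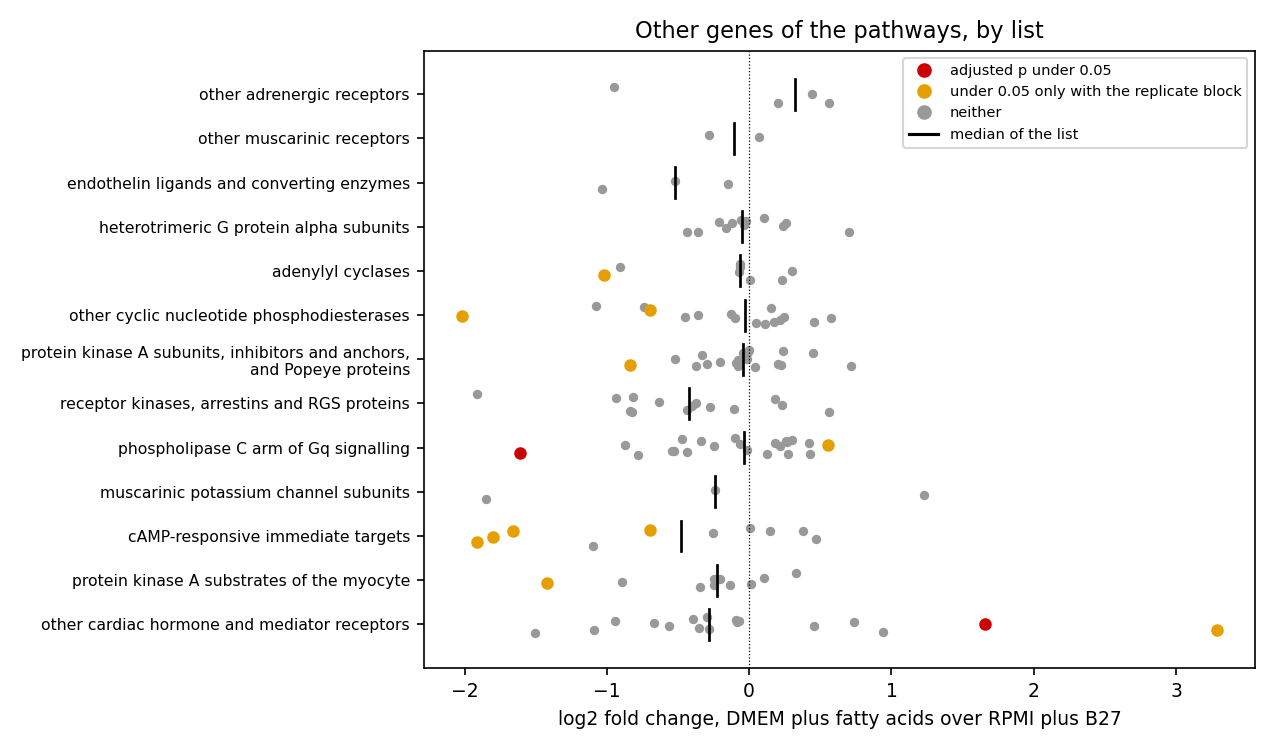
Log2 fold change of each tested gene in the 13 pathway lists, positive where DMEM plus fatty acids was higher, with the list median as a bar. Red points had an adjusted p under 0.05 by edgeR (PLCE1 and CALCRL), orange points passed only with the replicate block, and grey points in neither fit.

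The list of cAMP-responsive genes also holds CREB1 and CRTC2, which act in cAMP signalling itself. Of its 10 tested genes, 0 were called by edgeR, with 5 at an unadjusted p under 0.05, or 50% beside 17.7% for all tested genes. DESeq2 called 3 as lower (NR4A1, NR4A3 and DUSP1), where it called 863 of 26969 genes with a p value as lower. With the block 4 of 10 were called as lower and 0 as higher, where 3.42% of all tested genes were called as lower. The list median was -0.48, with 4 genes above 0 and 6 below. Of the 5, CREM, a cAMP-responsive modulator, was the one with a higher level, at 60.1 to 83.3 against 91.7 to 114.7 CPM without overlap (0.47, edgeR adjusted p 0.199). PPARGC1A, a regulator of mitochondrial genes, had 0.38 (edgeR adjusted p 0.585), and CREB1 and CRTC2 had 0.0038 and 0.15. Of the 4 called with the block, NR4A1, an orphan nuclear receptor, had 34.97, 26.3 and 13.1 CPM in RPMI plus B27 and 6.76, 8.43 and 4.56 CPM under DMEM plus fatty acids (-1.91, edgeR adjusted p 0.0671, or 0.0150 with the block). It was also called without RPMI plus B27 replicate 3 (adjusted p 0.0418). NR4A3, its relative, had 10.8, 6.64 and 3.92 CPM against 2.88, 1.61 and 1.66 CPM (-1.80, edgeR adjusted p 0.0974, or 0.0255 with the block). DUSP1, a MAP kinase phosphatase, had 38.7, 19.2 and 17.7 CPM against 7.88, 10.5 and 5.51 CPM (-1.66, edgeR adjusted p 0.0832, or 0.0357 with the block). The media did not overlap for these 3 genes. PER1, a clock gene, overlapped between media at 39.3 to 87.6 against 28.8 to 48.9 CPM (-0.69, edgeR adjusted p 0.307, or 0.0384 with the block). Several genes of this list also respond to serum, growth factors and calcium.

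At the level of cAMP synthesis, ADCY6, with ADCY5 the adenylyl cyclase of highest mean level per kb here, had 353.8, 155.3 and 168.8 CPM against 131.0, 96.7 and 106.8 CPM (-1.02, edgeR adjusted p 0.169, or 0.0446 with the block). ADCY5, the other main cardiac cyclase, had 16.4 CPM per kb in RPMI plus B27 and 19.3 under DMEM plus fatty acids. Of 8 tested cyclases, 0 were called by edgeR without the block, with 1 at an unadjusted p under 0.05, and DESeq2 called ADCY6. ADCY8 (-0.91) and ADCY2 (0.30) had edgeR adjusted p values of 0.378 and 0.760.

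Of 16 other phosphodiesterases, 0 were called by edgeR, with 2 at an unadjusted p under 0.05. DESeq2 called PDE5A, and 2 were called as lower with the block. PDE5A, the cyclic GMP enzyme inhibited by sildenafil and abundant in smooth muscle, had 32.1, 10.5 and 22.04 CPM against 4.43, 3.88 and 7.62 CPM (-2.02, edgeR adjusted p 0.0810, or 0.0292 with the block). PDE10A, which cuts both cyclic nucleotides, had 40.3, 26.5 and 32.9 CPM against 26.0, 16.8 and 18.8 CPM (-0.70, edgeR adjusted p 0.174, or 0.0333 with the block). PDE8B, specific for cAMP, had 0.46 (edgeR adjusted p 0.343). The list median was -0.03, with 8 genes above 0 and 8 below. For PDE5A, the smooth muscle marker sums given above moved the same way, and their part in its difference was not tested.

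Among protein kinase A subunits, inhibitors, anchors and Popeye proteins, 0 of 19 were called by edgeR, with 4 at an unadjusted p under 0.05. DESeq2 called PKIG and AKAP12 as lower and AKAP7 as higher, and 1 was called as lower with the block. PKIG, an inhibitor of the kinase, had 240.5, 243.8 and 152.6 CPM against 116.3, 150.3 and 90.4 CPM (-0.84, edgeR adjusted p 0.149, or 0.0236 with the block). The anchoring proteins AKAP7 (0.72, edgeR adjusted p 0.135) and AKAP12 (-0.52, 0.128) had values in opposite directions.

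Of 10 myocyte substrates of the kinase, 0 were called by edgeR or DESeq2 and 0 had an unadjusted p under 0.05. With the block RRAD, a GTPase that restrains the L-type calcium channel, was called as lower (-1.42, adjusted p 0.409 without and 0.00810 with the block). RRAD had 392.9, 223.7 and 50.7 CPM in RPMI plus B27 and 134.5, 93.8 and 20.9 CPM under DMEM plus fatty acids. Its replicates ran in the same order in both media, and the DMEM plus fatty acids library was the lower of each pair. KCNE1 (-0.89) and LIPE (-0.35) had edgeR adjusted p values of 0.416 and 0.448.

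Among receptor kinases, arrestins and RGS proteins, 0 of 14 were called with or without the block, and the median was -0.42. At an unadjusted p under 0.05 by edgeR there were 5, or 35.7% beside 17.7% for all tested genes. DESeq2 called GRK2 as lower. GRK2, the kinase that desensitises beta-adrenergic receptors, had 76.5, 64.2 and 69.1 CPM against 51.4, 52.2 and 51.2 CPM, with a spread of 6.20 and 0.532 (SD, n = 3 each) and no overlap (-0.44, edgeR adjusted p 0.108). RGS5, a brake on Gq and Gi signalling that is high in pericytes and smooth muscle, had 304.8, 379.7 and 344.2 CPM against 171.1, 303.2 and 189.0 CPM (-0.63, edgeR adjusted p 0.213). RGS9 had -1.92 (edgeR adjusted p 0.190) at a level of at most 2.79 CPM.

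G protein alpha subunits gave 0 of 12 calls by DESeq2 and by edgeR with or without the block, with 1 at an unadjusted p under 0.05 by edgeR and a median of -0.05. GNAI3, an inhibitory subunit, had 67.5, 50.03 and 50.5 CPM against 41.8, 41.8 and 47.2 CPM (-0.36, edgeR adjusted p 0.275). GNA13 (-0.21) and GNAL (0.70) had edgeR adjusted p values of 0.323 and 0.372.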

How the data were processed

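The deposited values are raw counts per gene symbol, 1 table per library, made with STAR and HTSeq on hg38, per the submitters' processing notes, which give no versions. The kit was stranded, per the labels' protocols. The annotation and the strand setting are not given in the sources used here. Rows that name no gene (12.8% to 15.6% of a library) were left out.

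The test was that of edgeR 4.0.16 (R 4.3.3): filterByExpr at its defaults (minimum count 10, total 15), TMM scaling, quasi-likelihood test over 6 libraries, Benjamini-Hochberg adjustment over 16107 genes, threshold 0.05. Standard errors are those implied by F. The biological coefficient of variation was 25.6%, or 18.2% with the block. Scripts were tested on simulated data. Libraries of the same replicate number were treated as pairs in the block and not in the main fit. The titles do not say what such libraries share. Deviations from the mean of the medium correlated at 0.31 to 0.43 within numbers and -0.24 to -0.14 between them. With 3 libraries centred per medium, the values within and between numbers are not independent. Named genes are the members, the list genes called with or without the block, the 3 smallest p values of each pathway list, called markers and the 2 genes most alike each member. Members and lists were chosen with earlier results of these data known. PECAM1, CDH5, VWF and ESAM, and EDN3, ECE2, CHRM1, CHRM5, ADRB3, ADRA1D, ADCY5, CREM, PPARGC1A, CREB1, CRTC2 and markers without a call by edgeR, were named outside that rule. They were named after their values were seen, as were the windows printed. A receptor ratio and some list genes are not reported here. Alternatives included DESeq2 1.42.0. Upstream sequences (RefSeq) were matched for 8 of the 9 genes.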

Additional observations from a re-analysis of the deposited data

How the results depend on the processing

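EDN1 was called in 8 of its 12 alternatives, with log2 fold changes of -4.06 to -3.30. The other 7 tested members were called in none of theirs. The count of called members was 1 in each fit with all libraries and 0 to 1 in fits that left out 1 library. Over all genes, 219 calls became 1232 with DESeq2, 539 among all genes with a count, 119 when each library had to hold at least 10 counts, 770 with the replicate block, and 3 to 131 without 1 library. Of the other pathway genes, 2 calls became 1 under scaling by total counts, 13 with DESeq2, 7 among all genes with a count, 1 under that count minimum, 13 with the replicate block, and 0 to 1 without 1 library. Scaling by total counts moved the median over all genes (log2 fold change) from 0.01 to 0.12, and the split of calls to 74 higher and 128 lower against 47 and 172. The replicate block changed the call of no member.

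Some log2 fold changes crossed 0 when 1 library was left out. Their ranges were -0.52 to 0.024 for ADRA1B, -0.59 to 0.43 for PDE3A, -1.29 to 0.025 for ADRA2B, -0.61 to 0.15 for CHRM3, -0.18 to 0.36 for CHRM4, -0.30 to 0.094 for ECEL1, -0.015 to 0.65 for ADCY2, -0.41 to 1.69 for KCNJ3 and -0.58 to 0.066 for KCNJ5. The difference between media in the log2 ratio of EDNRB to EDNRA ran from -0.049 to 0.96, and that of PDE4D to PDE3A from -0.98 to 0.33. With the replicate block, differences within pairs gave means of 0.34 for EDNRB to EDNRA and -0.35 for PDE4D to PDE3A. The cause of these changes was not tested. Counts were lowest for ADRB1 and ADRA1A, at most 24 in a library, which limits their precision.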
